A study of Homo sapiens with 6 samples.

Results

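The genes described here are the kinases, transcription factors and feedback inhibitors of the pathway from cytokine receptors to STAT3: the Janus kinases JAK1, JAK2 and TYK2, the transcription factors STAT3 and STAT5B, the feedback inhibitors SOCS1, SOCS2, SOCS3 and CISH, and the kinase gene PIM1. They were chosen by symbol, with earlier results of these data known. All 10 were found among the 29176 genes of the expression table and passed the filter on low counts with 18022 genes in total. The cells were HaCaT, a human keratinocyte line that became immortal spontaneously. One group of 3 samples had received a small interfering RNA against EIF4E together with M5 (si-eIF4E+M5), and the other group of 3 a control small interfering RNA together with M5 (si-NC+M5). RNA was taken at 48 hours. All samples thus carried M5, a stimulus used to make keratinocytes resemble those of psoriasis, and no unstimulated sample was analysed here. M5 is usually a mix of interleukins 17A, 22 and 1α, oncostatin M and TNF, although the labels leave its content unnamed. The labels do not say whether replicates were separate cultures, so the p-values rest on a spread between samples that could be technical.

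Oncostatin M and interleukin 22 bind receptors without kinase activity of their own. Janus kinases held by those receptors phosphorylate each other, the receptor tails and the STAT proteins docked there, and STAT3 then enters the nucleus as a dimer. Its targets include SOCS3, whose product binds receptor and kinase and shuts the signal down, while STAT5 drives CISH and SOCS2 in the same manner downstream of growth hormone and related cytokines. In the epidermis STAT3 is known for its activation in psoriatic lesions. These measurements are of RNA amounts, and neither phosphorylation nor protein was measured.

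EIF4E, which encodes the cap-binding translation initiation factor, had 21.0, 18.4 and 23.5 CPM (counts relative to library size, scaled for library composition by TMM) in the si-eIF4E+M5 libraries and 50.9, 48.2 and 51.2 CPM in the si-NC+M5 libraries. That is 41.9% of the control level (log2 fold change -1.25 ± 0.09, SE, adjusted p = 7.2e-05, edgeR). Library totals lay between 71044961 and 74246501 counts. Keratinocyte markers were all measured, and 8 of the 12 did not pass, among them KRT14 at 709 to 753 FPKM (fragments relative to gene length and library size) in si-eIF4E+M5 and 702 to 726 FPKM in si-NC+M5. KRT5 was higher (568 to 641 FPKM in si-eIF4E+M5, 388 to 442 FPKM in si-NC+M5), as were PERP (92.4 to 97.9 FPKM in si-eIF4E+M5, 56.6 to 65.2 FPKM in si-NC+M5) and DSG3 (81.5 to 94.3 FPKM in si-eIF4E+M5, 66.9 to 74.1 FPKM in si-NC+M5). ITGA6 was lower (70.6 to 89.3 FPKM in si-eIF4E+M5, 112 to 128 FPKM in si-NC+M5). Summed FPKM of fibroblast markers was 0.773 to 1.09 in si-eIF4E+M5 and 0.371 to 0.489 in si-NC+M5, with COL1A1 and COL3A1 higher in si-eIF4E+M5 and LUM and THY1 at 0 there in every library. Melanocyte markers summed to 0.686 to 0.773 FPKM in si-eIF4E+M5 and 0.611 to 0.854 FPKM in si-NC+M5, and endothelial markers to 0.264 to 0.390 FPKM in si-eIF4E+M5 and 0.129 to 0.501 FPKM in si-NC+M5. Immune markers summed to 7.53 to 9.27 FPKM in si-eIF4E+M5 and 5.44 to 6.46 FPKM in si-NC+M5, nearly all of it CD68, which keratinocytes can also express. CD68 was higher in si-eIF4E+M5 in edgeR, DESeq2 and limma. CD14 did not pass (0.509 to 1.02 FPKM in si-eIF4E+M5, 0.323 to 0.511 FPKM in si-NC+M5). The T cell gene CD3E had at most 7 counts in si-eIF4E+M5 and 4 in si-NC+M5. The part of these marker differences in the results was not tested. In these bulk samples fewer cells of a type and less RNA per cell cannot be told apart.

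Among the 10 genes, STAT3 rose and SOCS2 and PIM1 fell in the si-eIF4E+M5 cells, while the other 7 did not pass. The 3 kinases were among those 7, and JAK1 and STAT5B had log2 fold changes of -0.013 and 0.00023. The largest difference in size was that of SOCS1, at a log2 fold change of 1.07, and it missed the threshold. Calls are at a Benjamini-Hochberg adjusted p under 0.05 over all tested genes in edgeR's quasi-likelihood test. Of all tested genes 15.8% were called, 7.44% as higher and 8.4% as lower. The 3 calls among 10 genes are 30.0%, for genes chosen with earlier results of these data known. The median log2 fold change was 0.055 over the 10 genes and -0.0061 over all tested genes. CPM values of the groups did not overlap for 6 of the 10 (STAT3, SOCS1, SOCS2, SOCS3, CISH and PIM1), against 33.8% of all tested genes. For a single gene the exact permutation test over 3 against 3 samples cannot go below p = 0.1, which each of these 6 reached (two-sided).

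**Figure D1:**
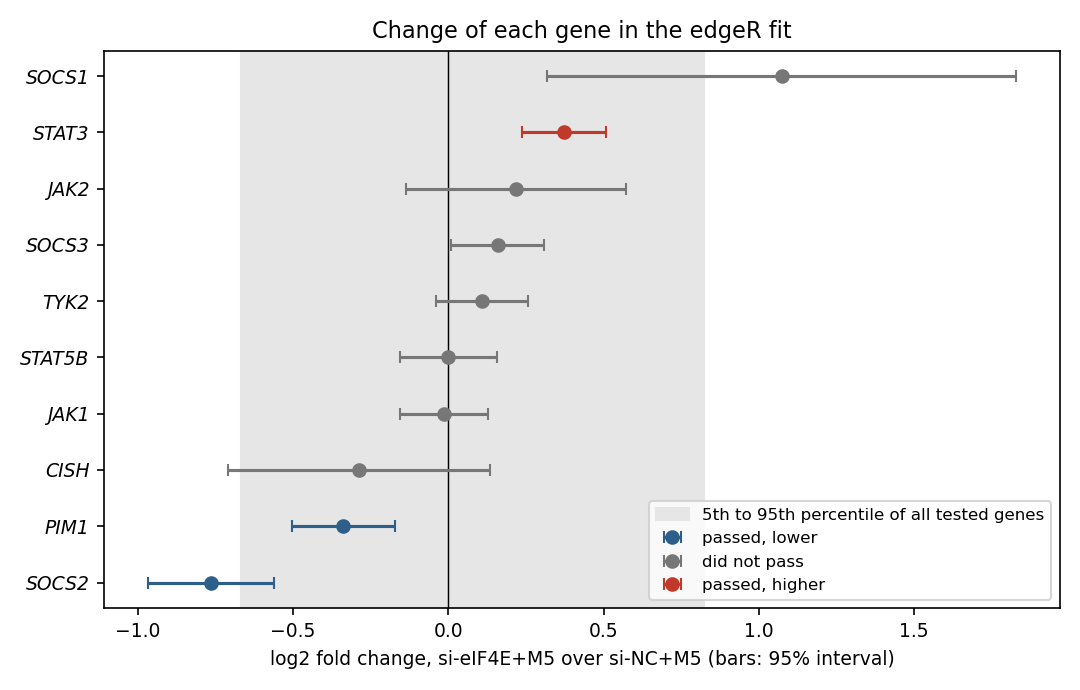
Log2 fold change in si-eIF4E+M5 relative to si-NC+M5 for each gene (x axis) with its 95% interval from the edgeR fit, over the 5th to 95th percentile of all tested genes (-0.67 to 0.82, grey). SOCS2 lies below that range, SOCS1 lies above it with the widest interval, and JAK1 and STAT5B sit close to 0.

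Levels between genes can be set side by side only per length. On the FPKM scale STAT3 was the most abundant of the 10 in both groups and SOCS1, JAK2 and CISH were the scarcest. In si-eIF4E+M5 the order was STAT3 (29.6 ± 1.44 FPKM, SD, n = 3), TYK2 (15.7 ± 1.41), PIM1 (12.7 ± 0.725), SOCS3 (12.2 ± 0.576), JAK1 (7.07 ± 0.214), STAT5B (5.68 ± 0.235), SOCS2 (4.14 ± 0.559), SOCS1 (1.25 ± 0.490), JAK2 (0.812 ± 0.0401) and CISH (0.544 ± 0.0991). Only PIM1 and SOCS3 overlapped as neighbours in that order. In si-NC+M5 PIM1 stood above TYK2, SOCS2 stood above STAT5B, and SOCS1 was last. There the neighbours PIM1 and TYK2, JAK1 and SOCS2, JAK2 and CISH, and CISH and SOCS1 overlapped. The gene lengths behind the deposited FPKM are long, at 13.2 kb for JAK1 and 6.79 kb for SOCS2, where the main GENCODE transcripts measure 5047 and 2881 nt. Per kilobase of those transcripts, JAK1 stood above SOCS3 in both groups, unlike on the FPKM scale, at 18.4 ± 0.884 CPM per kb against 12.7 ± 0.654 in si-eIF4E+M5. SOCS2 stood below SOCS3 in si-eIF4E+M5 (9.66 ± 1.11 CPM per kb) and above it in si-NC+M5 (16.4 ± 1.03 against 11.4 ± 0.0799 for SOCS3), where FPKM put it below in both. The place of STAT3 at the top and of JAK2, CISH and SOCS1 in the last 3 positions held on both scales.

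**Figure D2:**
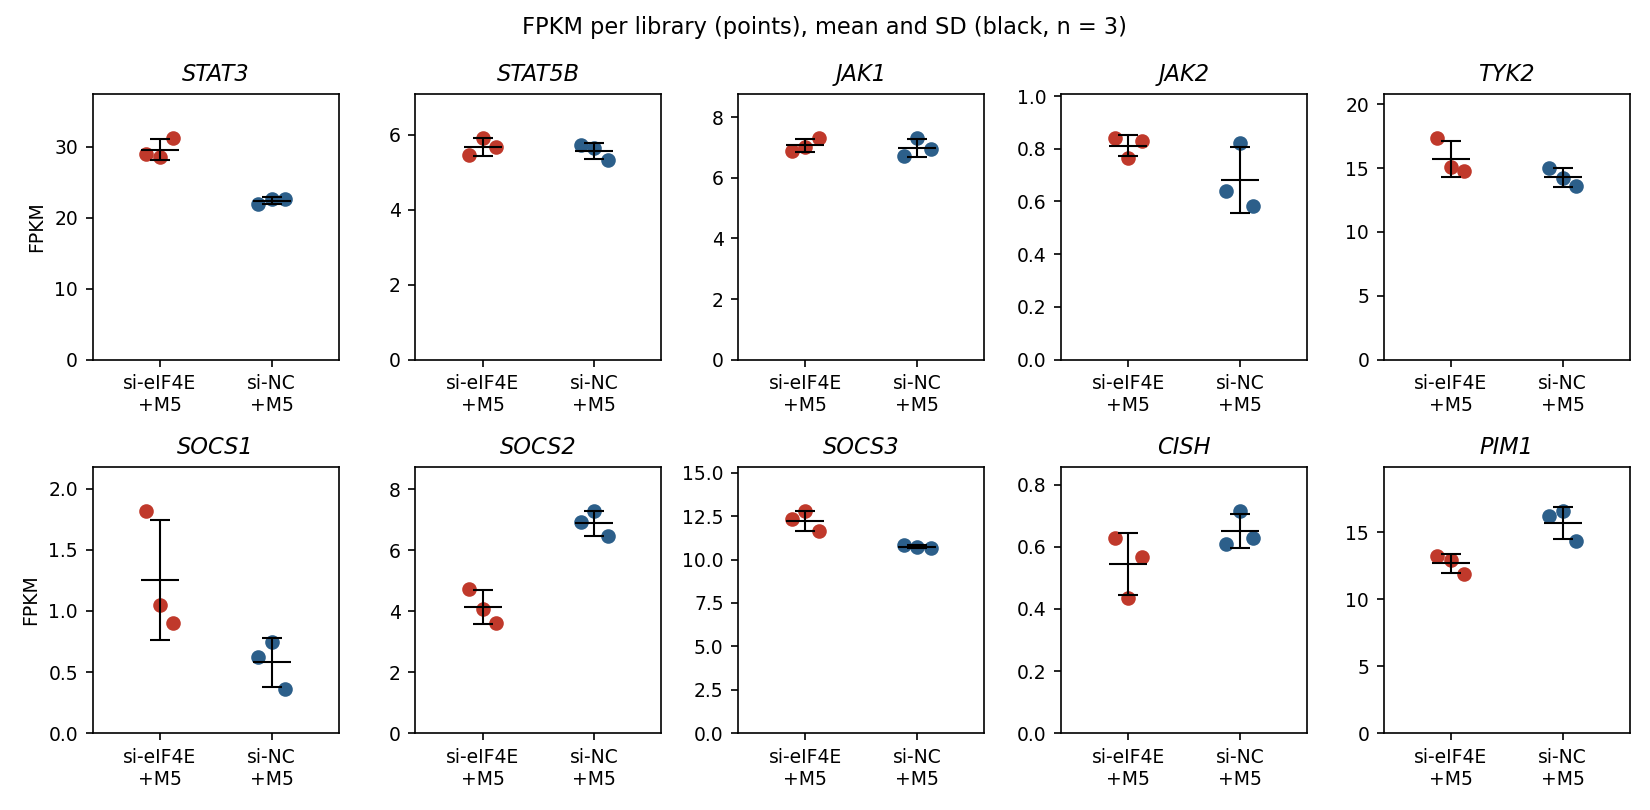
FPKM of each gene (y axis, from 0) in the 3 si-eIF4E+M5 libraries (red, left) and the 3 si-NC+M5 libraries (blue, right), with mean and SD in black. STAT3 points are all higher and SOCS2 and PIM1 points all lower in si-eIF4E+M5, while those of JAK1 and STAT5B interleave.

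STAT3 (ENSG00000168610, minus strand of chromosome 17, 42313324 to 42388442 in GRCh38) is the transcription factor that both oncostatin M and interleukin 22 activate. It had 29.05, 28.6 and 31.3 FPKM in the si-eIF4E+M5 libraries and 21.9, 22.7 and 22.7 FPKM in the si-NC+M5 libraries. Every si-eIF4E+M5 value lay above every si-NC+M5 value. The level was 1.29-fold (95% interval 1.18 to 1.42; log2 fold change 0.37 ± 0.06, SE, adjusted p = 0.0031, edgeR). Of the 1340 genes called higher, 63.8% changed by more. STAT5B (ENSG00000173757, minus strand of chromosome 17, 42199177 to 42276406), a STAT of growth hormone and interleukin 2 family signals, had 5.45, 5.92 and 5.66 FPKM in si-eIF4E+M5 and 5.72, 5.65 and 5.32 FPKM in si-NC+M5. These values interleaved, and the 95% interval of the log2 fold change was -0.16 to 0.16. Its near-identical neighbour STAT5A was listed at 0 in 4 of the 6 libraries, with 38 counts in si-eIF4E+M5 replicate 3 and 10 in si-NC+M5 replicate 1. How reads that fit both genes were counted is not given, so STAT5B may hold reads of STAT5A. The 2 genes summed had a log2 fold change of 0.0050. Of the other STAT genes, STAT6 was the most abundant at 54.5 FPKM in si-eIF4E+M5 and 53.7 FPKM in si-NC+M5, and STAT2, STAT4 and STAT6 did not pass (log2 fold changes -0.15, 0.33 and -0.0063), nor did they in DESeq2 or limma, with STAT2 alone under an unadjusted p of 0.05 in edgeR.

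The 3 Janus kinases did not pass in edgeR, DESeq2 or limma, and 0 of them had an unadjusted p under 0.05 in any of these. TYK2 (ENSG00000105397, minus strand of chromosome 19, 10350529 to 10380572), the kinase that serves the interleukin 10 receptor chain shared by interleukin 22, had 17.4, 15.1 and 14.8 FPKM in si-eIF4E+M5 and 15.0, 14.3 and 13.6 FPKM in si-NC+M5. The groups overlapped, and the log2 fold change was 0.11 (95% interval -0.039 to 0.26). JAK1 (ENSG00000162434, minus strand of chromosome 1, 64833229 to 65067732), which works with the gp130 and interleukin 22 receptors, had 6.89, 7.03 and 7.31 FPKM in si-eIF4E+M5 and 6.73, 7.32 and 6.95 FPKM in si-NC+M5. Its log2 fold change of -0.013 had an interval of -0.15 to 0.13. JAK2 (ENSG00000096968, plus strand of chromosome 9, 4984390 to 5126974) was low, with 505, 470 and 504 counts in si-eIF4E+M5 and 378, 487 and 361 counts in si-NC+M5. Replicate 2 of si-NC+M5 reached the si-eIF4E+M5 values, and the interval of -0.13 to 0.57 is the widest of the 3 kinases. The lymphoid kinase JAK3 averaged 0.594 CPM in si-eIF4E+M5 and 0.642 CPM in si-NC+M5 and did not pass.

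SOCS2 (ENSG00000120833, plus strand of chromosome 12, 93569814 to 93583487) encodes an inhibitor best known for limiting growth hormone signalling. It had 4.74, 4.06 and 3.63 FPKM in the si-eIF4E+M5 libraries and 6.92, 7.28 and 6.47 FPKM in the si-NC+M5 libraries. No library of one group reached the range of the other, and the level fell to 58.9% of that in si-NC+M5 (95% interval 0.511 to 0.678-fold; log2 fold change -0.76 ± 0.09, SE, adjusted p = 0.00070, edgeR). Of the 1513 genes called lower, 12.03% changed by more. SOCS2-AS1, an antisense RNA gene that overlaps SOCS2 by 1955 bp, also fell, to 0.488 ± 0.0709 FPKM in si-eIF4E+M5 against 1.09 ± 0.305 FPKM in si-NC+M5 (log2 fold change -1.17 ± 0.22, adjusted p = 0.0064, edgeR). Whether counting used strand is not given in the sources used here, so reads in the overlap cannot be assigned, and the 2 genes summed had a log2 fold change of -0.80.

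SOCS1 (ENSG00000185338, minus strand of chromosome 16, 11254408 to 11256204) encodes the inhibitor that blocks JAK catalytic activity and restrains interferon signalling. Over the 6 libraries it was the least counted gene, with 247, 146 and 125 counts in si-eIF4E+M5 and 84, 101 and 51 counts in si-NC+M5, or 1.81, 1.05 and 0.902 FPKM against 0.626, 0.746 and 0.362 FPKM. All si-eIF4E+M5 values were higher, but they spread by 36.5% of their mean (coefficient of variation of CPM) and those of si-NC+M5 by 34.3%, where 6 of the other genes stayed under 10% in both groups. The level was 2.10-fold (95% interval 1.25 to 3.55; log2 fold change 1.07 ± 0.34) and did not pass over all genes (adjusted p = 0.059, edgeR). DESeq2 called it (adjusted p = 0.018), beside 22.0% of the genes it gave an adjusted p, and without si-eIF4E+M5 replicate 1 the log2 fold change was 0.75 (adjusted p = 0.22, edgeR). The whole gene lies within RMI2 on the opposite strand. RMI2 itself had 3.35 ± 0.116 FPKM in si-eIF4E+M5 and 2.74 ± 0.301 FPKM in si-NC+M5 (log2 fold change 0.26 ± 0.11, adjusted p = 0.15, edgeR), and reads of the pair cannot be separated if strand was ignored.

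SOCS3 (ENSG00000184557, minus strand of chromosome 17, 78356778 to 78360077), the inhibitor that STAT3 itself induces and that binds gp130, was the most abundant of the 4 inhibitors on the FPKM scale. It had 12.3, 12.8 and 11.6 FPKM in si-eIF4E+M5 and 10.9, 10.7 and 10.7 FPKM in si-NC+M5. The groups did not overlap, with a coefficient of variation of 0.702% among the si-NC+M5 libraries, yet the difference on the log2 scale was 0.16 (95% interval 0.0084 to 0.31) and missed the threshold (adjusted p = 0.15, edgeR). CISH (ENSG00000114737, minus strand of chromosome 3, 50606489 to 50611774), a STAT5-induced inhibitor, had 242, 171 and 222 counts in si-eIF4E+M5 and 231, 270 and 247 counts in si-NC+M5. Scaled to CPM the groups just failed to meet (highest 3.23 in si-eIF4E+M5, lowest 3.25 in si-NC+M5), while the FPKM values overlapped. The log2 fold change of -0.29 (95% interval -0.71 to 0.14) did not pass. MAPKAPK3, which overlaps CISH by 255 bp on the opposite strand and has far more counts, fell (log2 fold change -0.26 ± 0.07, adjusted p = 0.030, edgeR).

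Promoter sequences are shown for the 2 of the 3 matched inhibitors with a searched motif in a window, and were chosen for that match. They are RefSeq's (GRCh38.p14), written 5′ to 3′ on the gene's own strand, and all of the 10 genes but SOCS2 matched that table, with 15 start sites. The 250 bases before each start were searched on both strands for TTCNNNGAA (the STAT motif), TTC and GAA with 4 bases between (its wider form), GAAA and GAAA with 2 bases between (bound by interferon regulatory factors), TGANTCA (AP-1), CACGTG (E-box) and TGACGTCA (cyclic AMP response element). Capitals mark the matches, the STAT motif in CISH and the interferon regulatory factor motif in SOCS1. Each motif was counted separately, with no overlap between motifs removed.
CISH, chr3:50611775-50612024, minus strand: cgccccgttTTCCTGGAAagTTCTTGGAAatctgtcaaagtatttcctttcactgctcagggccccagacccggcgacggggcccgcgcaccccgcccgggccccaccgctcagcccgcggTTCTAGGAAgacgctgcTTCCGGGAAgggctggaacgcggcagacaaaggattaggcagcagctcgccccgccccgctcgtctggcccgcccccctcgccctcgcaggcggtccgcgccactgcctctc
SOCS1, chr16:11256205-11256454, minus strand: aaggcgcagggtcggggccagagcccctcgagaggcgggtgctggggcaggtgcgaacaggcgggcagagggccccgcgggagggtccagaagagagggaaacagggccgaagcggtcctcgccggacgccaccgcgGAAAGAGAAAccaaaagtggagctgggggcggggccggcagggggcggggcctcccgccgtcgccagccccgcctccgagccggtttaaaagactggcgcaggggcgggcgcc

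CISH held 4 matches to TTCNNNGAA, which reads the same on both strands. They begin 241, 230, 129 and 112 bases before the start. At least 1 match occurs in 6.57% of 35116 promoters of the same length and 4 or more in 5 of them. SOCS1 held 1 match to the interferon regulatory factor motif, 113 bases before its start, a motif found in 3.02% of these promoters. A match describes letters and is no measured site. The windows of STAT3, STAT5B, TYK2, JAK1, JAK2, SOCS3 and PIM1 held none of the 6 motifs. Both SOCS3 windows (78360926 to 78361175 and 78359668 to 78359917) belong to other starts than the deposited one at 78360077, so the bases directly before that start were not searched. The wider STAT motif occurs in 5.38% of these promoters, TGANTCA in 6.57%, CACGTG in 6.34% and TGACGTCA in 1.65%.

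PIM1 (ENSG00000137193, plus strand of chromosome 6, 37170152 to 37175428) encodes a constitutively active serine/threonine kinase that STAT3 and STAT5 induce and that promotes survival. It had 13.3, 13.0 and 11.9 FPKM in the si-eIF4E+M5 libraries and 16.2, 16.6 and 14.4 FPKM in the si-NC+M5 libraries. The groups did not overlap, and PIM1 fell to 79.1% of its si-NC+M5 level (95% interval 0.706 to 0.887-fold; log2 fold change -0.34 ± 0.07, SE, adjusted p = 0.013, edgeR). Without si-NC+M5 replicate 2 its log2 fold change was -0.29 and the call was lost (adjusted p = 0.066, edgeR). Of its relatives PIM3 fell as well, to 57.1 ± 3.41 CPM in si-eIF4E+M5 against 82.2 ± 8.46 CPM in si-NC+M5 (log2 fold change -0.53 ± 0.08, adjusted p = 0.0023, edgeR), and PIM2 did not pass (-0.069).

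Summed over genes of one role, FPKM of STAT3 and STAT5B was 34.5, 34.5 and 36.9 in si-eIF4E+M5 and 27.6, 28.4 and 28.0 in si-NC+M5, without overlap (log2 difference 0.33 ± 0.03, SE). The 3 kinases summed to 25.1, 22.9 and 22.9 FPKM in si-eIF4E+M5 and 22.4, 22.4 and 21.1 FPKM in si-NC+M5 (0.10 ± 0.05). The 4 inhibitors summed to 19.5, 18.3 and 16.7 FPKM in si-eIF4E+M5 and 19.0, 19.5 and 18.1 FPKM in si-NC+M5, which overlapped (-0.055 ± 0.071). Without si-eIF4E+M5 replicate 1 the difference was 0.060 for the kinases and -0.11 for the inhibitors, and without si-eIF4E+M5 replicate 3 that of the inhibitors was 0.0036. The kinase difference was 0.061 per kilobase of the main transcript. The inhibitor sum depends on gene length too: per kilobase of the main transcript, which gives SOCS2 more weight, the difference was -0.27. Within the summed inhibitor FPKM, SOCS2 made up 21.7 to 24.3% in si-eIF4E+M5 and 35.7 to 37.4% in si-NC+M5. SOCS3 made up 63.2 to 69.7% in si-eIF4E+M5 and 55.1 to 58.8% in si-NC+M5, and SOCS1 5.39 to 9.30% in si-eIF4E+M5 and 2.00 to 3.83% in si-NC+M5. These 3 shares did not overlap between the groups. CISH made up 2.37 to 3.40% in si-eIF4E+M5 and 3.20 to 3.67% in si-NC+M5, which overlapped. The sizes of these shares depend on gene length as well. Per kilobase of the main transcript SOCS2 stood above SOCS3 in si-NC+M5 (16.4 against 11.4 CPM per kb).

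**Figure D3:**
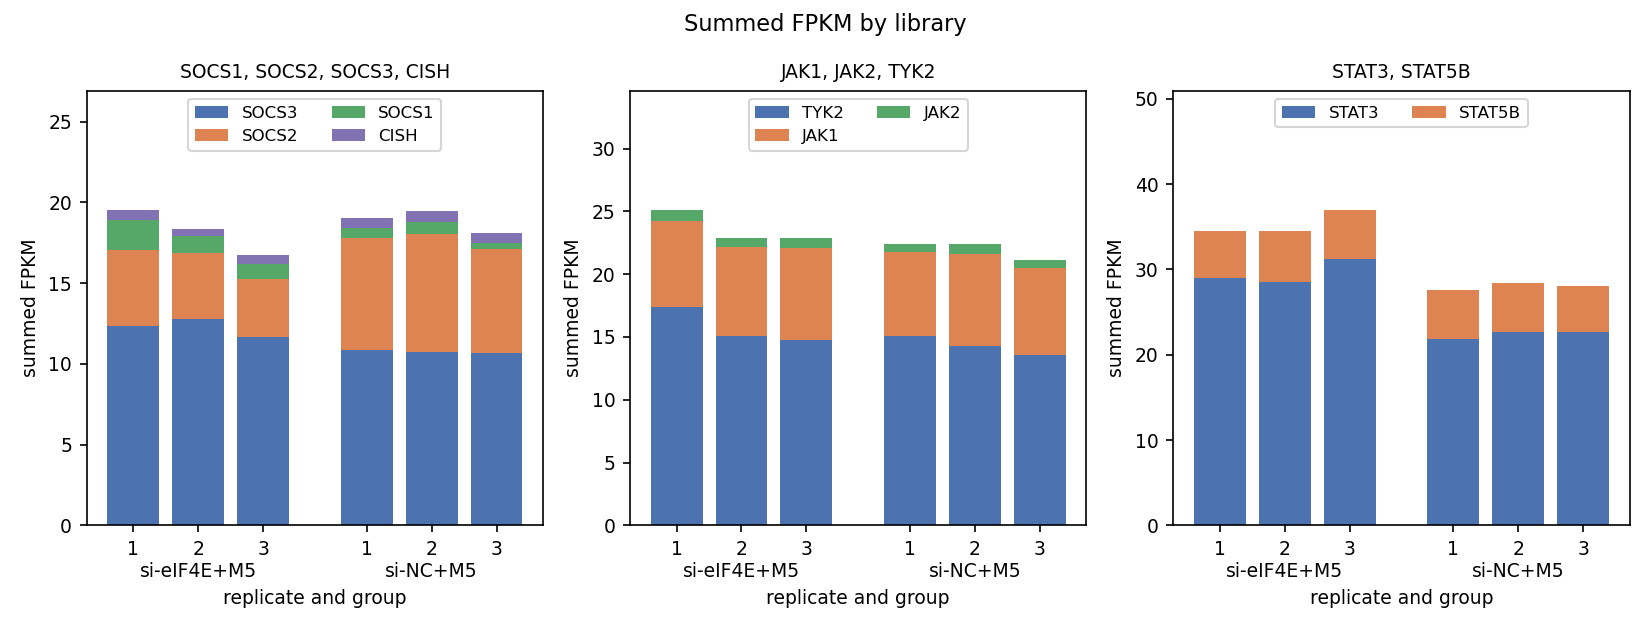
FPKM summed over the 4 inhibitor genes, the 3 kinases and the 2 STAT genes (panels), by library, si-eIF4E+M5 left and si-NC+M5 right, with each gene as a coloured segment. The inhibitor bars reach 16.7 to 19.5 FPKM in si-eIF4E+M5 and 18.1 to 19.5 FPKM in si-NC+M5 with a smaller SOCS2 segment in si-eIF4E+M5, and the STAT bars are higher in si-eIF4E+M5.

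Ratios within a library do not depend on library scaling. The FPKM of SOCS2 per FPKM of STAT5B was 0.870, 0.687 and 0.641 in si-eIF4E+M5 and 1.21, 1.29 and 1.21 in si-NC+M5 (log2 difference -0.77 ± 0.14, SE). SOCS3 per STAT3 was 0.424, 0.447 and 0.372 in si-eIF4E+M5 and 0.496, 0.472 and 0.470 in si-NC+M5 (-0.21 ± 0.08), also without overlap. SOCS1 per JAK1 was 0.264, 0.149 and 0.124 in si-eIF4E+M5 and 0.0931, 0.102 and 0.0521 in si-NC+M5 (1.10 ± 0.45). CISH per STAT5B overlapped between groups (-0.30 ± 0.21). Without si-eIF4E+M5 replicate 2 that difference was -0.12, and without si-eIF4E+M5 replicate 3 that of SOCS3 per STAT3 was -0.14. Over these 3 sums and 4 ratios, the 5 without overlap had the smallest possible two-sided exact permutation p of 0.1, or 0.14 after Benjamini-Hochberg adjustment over the 7. This exact test over 3 against 3 libraries cannot reach the threshold whatever the values, and no other test was run on the sums and ratios.

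Genes most like each of the 10 were sought among 112 pathway and marker genes with a mean of at least 1 FPKM, as the smallest root mean square difference between log2 CPM profiles over the 6 libraries, each centred on its own mean. For STAT3 they were the interferon-induced IFIT3 (0.049) and the AP-1 gene FOSL2 (0.052). For SOCS2 they were MYC (0.12) and the cyclin gene CCND1 (0.13), and for PIM1 the receptor gene IL20RB (0.056) and the cytokine subunit gene EBI3 (0.074). SOCS3 was closest to the interferon gamma receptor gene IFNGR1 and to IRF1 (0.042 and 0.043), and CISH to the receptor genes IFNAR1 (0.12) and IL6ST (0.13). For SOCS1 the best were IL22RA1 (0.43) and SERPINA3 (0.49). STAT5B was closest to IL4R and BCL3 (both 0.044), JAK1 to CDH1 (0.029) and TP63 (0.039), JAK2 to DSG3 and CTF1 (both 0.14), and TYK2 to JUNB (0.054) and STAT6 (0.078). For scale, each gene's own root mean square deviation from its mean was 0.67 for SOCS1, 0.40 for SOCS2, 0.22 for CISH, 0.19 for STAT3 and JAK2, 0.18 for PIM1, 0.090 for SOCS3, 0.086 for TYK2, 0.060 for JAK1 and 0.059 for STAT5B. With 6 libraries in 2 groups such likeness mostly states a like difference between groups.

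The transcripts of the 10 genes differ in features that the choice did not use. Taking 1 coding transcript per gene from GENCODE v29, the 5′ untranslated regions of SOCS1 (722 nt) and SOCS2 (719 nt) are longer than those of 94.4% and 94.3% of 13253 tested genes, whose median is 198 nt. Those of JAK2 (494 nt), TYK2 (482 nt), SOCS3 (416 nt), PIM1 (373 nt), STAT3 (313 nt) and JAK1 (249 nt) are also above that median, and those of CISH (181 nt) and STAT5B (169 nt) below it. The GC content of these regions is highest in STAT5B (79.3%) and CISH (79.0%) and lowest in TYK2 (59.8%), with SOCS1 at 76.9% and SOCS2 at 70.2%, against a median of 65.8%. The destabilizing pentamer ATTTA occurs 6 times in the 3′ untranslated region of JAK2, 5 times in those of PIM1, SOCS2 and STAT5B, 4 times in STAT3 and SOCS3, 3 times in CISH, 2 times in JAK1 and 0 times in SOCS1 and TYK2. Per kilobase it reached 4.31 in JAK2, 3.75 in PIM1 and 3.19 in SOCS2, against a median of 1.53, and 67.3% of these genes carry at least 1. Of the 2 genes with the longest 5′ regions here, SOCS2 fell and SOCS1 did not pass. Whether any of these features relates to the differences was not tested.

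Around the 10 genes, 139 other genes of the pathway were listed by role, of which 114 were tested. Of these 20 rose and 20 fell, with a median log2 fold change of -0.049. That is 17.5% in each direction, against 7.44% and 8.4% of all tested genes. The lists were drawn up with earlier results of these data known, so shares within them are description only. Ligand genes gave 1 higher and 3 lower of 15. LIF, a gp130 cytokine, fell to 25.5 ± 1.87 CPM in si-eIF4E+M5 against 44.1 ± 4.11 CPM in si-NC+M5 (log2 fold change -0.79 ± 0.09, adjusted p = 0.00049, edgeR). IL6 (-0.96 ± 0.18) and IL23A (-1.04 ± 0.31) fell at low levels, and IL15 rose (0.88 ± 0.12). The IL23A call was lost in limma. OSM itself was at 0.00824 FPKM in si-eIF4E+M5 and 0 in si-NC+M5 and was not tested.

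Receptor genes gave 4 higher and 5 lower of 22. That is 18.2% and 22.7%, against 7.44% and 8.4% of all tested genes, in a list drawn up with earlier results known. The 2 chains of the oncostatin M receptor both fell, OSMR to 345 ± 36.7 CPM in si-eIF4E+M5 against 426 ± 25.4 CPM in si-NC+M5 (-0.31 ± 0.08) and IL6ST, which encodes gp130, by 0.26 on the log2 scale. Of the interleukin 22 receptor, IL22RA1 rose to 5.71 ± 0.289 CPM in si-eIF4E+M5 against 3.40 ± 0.24 CPM in si-NC+M5 (0.75 ± 0.15), and IL10RB did not pass (0.19 ± 0.11). IL6R (0.64 ± 0.14), IL7R (0.22 ± 0.06) and IFNGR1 (0.20 ± 0.06) were the other genes that rose, and IL13RA1 (-0.33 ± 0.06), IL20RB (-0.30 ± 0.06) and IFNAR1 (-0.24 ± 0.07) the others that fell. In limma the calls of IL6ST and IFNAR1 were lost at both pseudocounts, and that of OSMR at a pseudocount of 1.

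Among the other regulators, edgeR called 2 of 4 SOCS genes, 0 of 6 ubiquitin ligase partners and 2 of 13 PIAS, phosphatase and adaptor genes, beside 15.8% of all tested genes. SOCS6 rose (0.31 ± 0.08) and SOCS5 fell (-0.34 ± 0.07, not called by limma), and SOCS4 and SOCS7 did not pass. Of the 6 partners in the ubiquitin ligase that the SOCS box recruits, ELOB, ELOC, CUL5, CUL2, RNF7 and RBX1, 0 passed in edgeR, DESeq2 or limma. Their log2 fold changes lay between -0.11 and 0.18, and 1 of them (RNF7, 0.17) had an unadjusted p under 0.05 in edgeR. SH2B1, an adaptor that binds JAK2, rose (0.25 ± 0.07) and STAM fell (-0.25 ± 0.07) in edgeR and DESeq2, while limma called neither. The phosphatase gene PTPN2 (-0.22 ± 0.08) did not pass, and PTPN6 (0.24 ± 0.07) did not pass in edgeR but did in DESeq2 and in limma at a pseudocount of 0.1.

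Of 28 tested genes known as STAT3 targets 5 rose and 6 fell, and their median was -0.020. These shares are 17.9% and 21.4%, against 7.44% and 8.4% of all tested genes, in a list drawn up with earlier results known. The acute-phase inhibitor gene SERPINA3 (0.81 ± 0.14), the transcription factor gene CEBPD (0.60 ± 0.10), LRG1 (0.46 ± 0.07) and the repressor gene BCL6 (0.45 ± 0.08) rose. MYC (-0.81 ± 0.07), CCND1 (-0.61 ± 0.05), the survival gene BCL2L1 (-0.59 ± 0.07) and the adhesion molecule gene ICAM1 (-0.53 ± 0.08) fell. BCL3, JUNB and SBNO2, 3 further targets, did not pass (0.030, 0.069 and -0.098). IRF1 and S100A7, from the same list, did not pass in edgeR, while DESeq2 and limma called both. IRF1 stood 0.17 ± 0.06 higher on the log2 scale (adjusted p = 0.095, edgeR). Of 6 STAT5 targets CCND2 (-0.70 ± 0.12) and CD274 (-0.66 ± 0.17) fell, while BCL2 (-0.89), ID1 (-0.37), CDKN1A (-0.19) and MYB (0.53) did not pass in edgeR. DESeq2 also called CDKN1A lower, and limma called CCND2 alone.

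**Figure D4:**
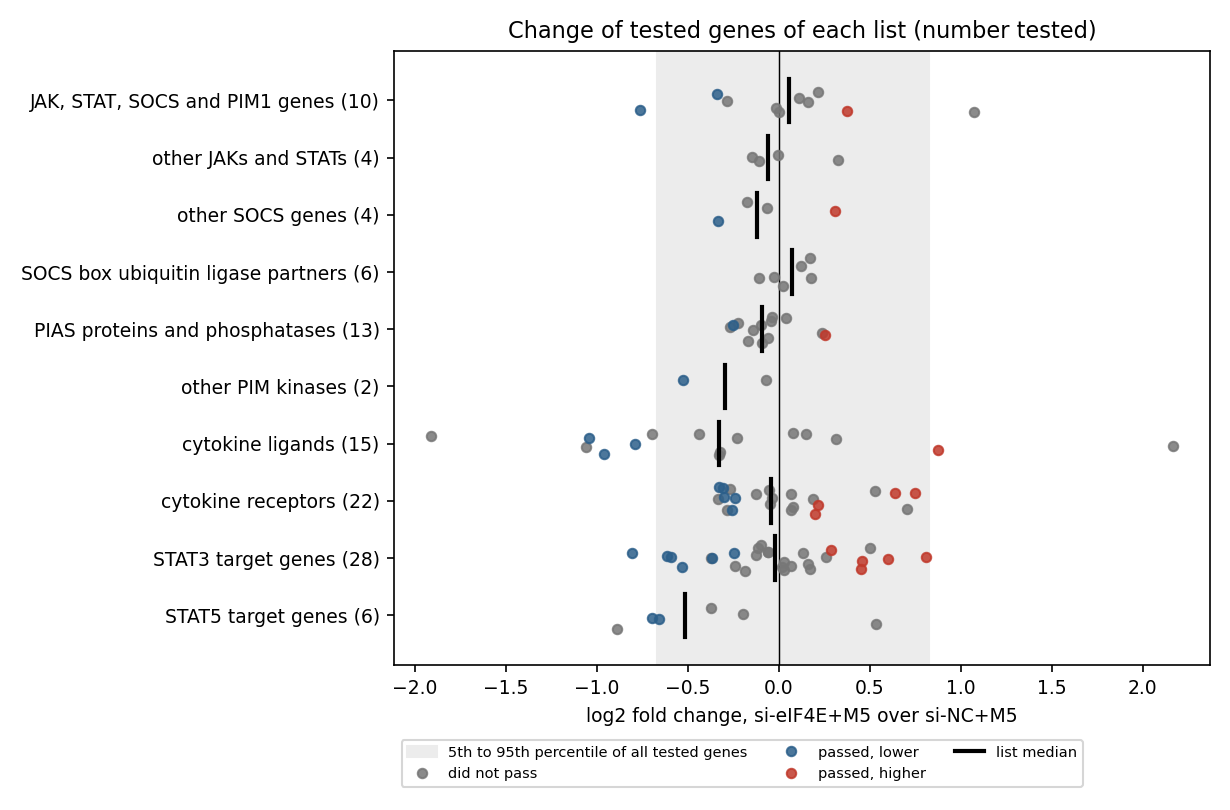
Log2 fold change in si-eIF4E+M5 relative to si-NC+M5 (x axis) for the tested genes (points, scattered vertically at random) of the 10 described genes and the other lists (rows), with list medians as black bars and the 5th to 95th percentile of all tested genes in grey. Points of STAT3 targets lie on both sides of 0 (median -0.020), and those of cytokine ligands lie mostly left of it (median -0.33).

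The deposited table's own KEGG annotation of the Jak-STAT pathway, counted after values were seen, names 112 genes. Of 99 tested, 7 were higher (7.07%, against 7.44% of all genes) and 22 lower (22.2%, against 8.4%), with a median of -0.058. Without the 10 genes described here the counts were 6 and 20 of 89. The called genes that appear in no list above were CSF2 (-1.89 ± 0.24), PDGFA (-0.50 ± 0.08), PDGFB (-0.50 ± 0.10), EGFR (-0.43 ± 0.10) and SOS2 (-0.26 ± 0.08), all lower.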

How the data were processed

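Total RNA of 6 HaCaT samples was sequenced on an Illumina instrument, per the labels' protocols. The submitters' processing notes name cutadapt 1.9, FastQC and GRCh38. For aligner, counter, annotation and strand, nothing is given in the sources used here. The authors deposited whole-number counts per gene, and FPKM made from them by gene length and library total, per the file headers and values.

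Group differences were tested on the counts by edgeR 4.0.16 under R 4.3.3, with filterByExpr (minimum 10 counts) and TMM factors of 0.980 to 1.04. A two-sided quasi-likelihood F test was used, with Benjamini-Hochberg adjustment over 18022 genes and calls at 0.05. Each gene left 4 residual degrees of freedom. The p-values and intervals rest on more than these 4, because the fit also borrows information on spread from the other genes. SE is the log2 fold change over the square root of F. A floor of 3 counts is 0.0404 to 0.0422 CPM, and counting intervals cover counting error only. The fit was tested on simulated data. No library was a copy of another: replicate pairs gave a chi-squared of 21.3 to 25.7 for each degree of freedom. Members and lists were chosen with earlier results of these data known. The text names all 10 genes, up to 4 called genes per direction and list, and the most alike genes. Further genes named, neighbours included, were chosen after their values were seen. Alternatives used DESeq2 1.42.0 and limma 3.58.1 on log2(FPKM + 1) or log2(FPKM + 0.1). Positions are the deposited ones, overlaps and transcripts GENCODE v29 (same build), and promoters RefSeq. A gene and a list of target genes that were tested, and are in the totals over all lists, are not reported here.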

Additional observations from a re-analysis of the deposited data

How the results depend on the processing

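STAT3 (log2 fold change 0.32 to 0.41) and SOCS2 (-0.84 to -0.62) kept direction and call under all 15 and 16 alternatives run, and TYK2, JAK2 and SOCS3 stayed uncalled in the same direction under theirs. PIM1 lost its call only without si-NC+M5 replicate 2 (-0.39 to -0.29 with 1 library left out). SOCS1 was called with DESeq2 (1.09), with a robust spread (1.07) and with the replicate number as a block (1.07). It ranged from 0.75 to 1.31 with 1 library left out. Its sum with RMI2 was also called (0.36, adjusted p = 0.040, edgeR), but RMI2, at a mean of 839 counts, dominates that sum. CISH was called only when summed with MAPKAPK3 (-0.26), whose counts dominate that sum. STAT5B and JAK1, with differences near 0, changed sign: STAT5B was -0.00084 without a filter and -0.00090 with the block (-0.041 to 0.053 with 1 library left out), and JAK1 was 0.017 with library totals, 0.0028 with DESeq2, 0.011 above a mean of 1 FPKM, and 0.014 and 0.016 with limma at pseudocounts of 1 and 0.1 (-0.050 to 0.030 with 1 library left out). So 2 of the 10 genes were called higher with DESeq2, the robust spread and the block, and 2 or 3 in all with 1 library left out (1 higher, 1 to 2 lower). DESeq2, the robust spread and the block also called more genes higher across the table (1774, 1436 and 1586, against 1340). Genes called across the table numbered 1818 without a filter (801 higher), where 29176 genes were tested, and 1598 to 2283 with 1 library left out (724 to 1168 higher, 874 to 1191 lower), lowest without si-NC+M5 replicate 2. Genes called higher numbered 889 and 848 without si-eIF4E+M5 replicates 2 and 3, and genes called lower 1001 without si-eIF4E+M5 replicate 1. Listed pathway genes called lower numbered 13 without a filter and 13 to 16 with 1 library left out. The summed inhibitor level was -0.27 per kilobase of transcript (chosen after seeing the data, as were the summed pairs), against -0.055. Replicate numbers share no stated batch, so same-numbered libraries were not treated as pairs. Their deviations correlated at 0.022, 0.060 and 0.24, against -0.26 to 0.17 for differently numbered ones. So few values cannot settle whether the libraries were paired. The block gave 3414 calls and changed no other call among the 10 genes. With 1 library left out, JAK2 ranged from 0.13 (without si-NC+M5 replicate 3) to 0.38 (without si-NC+M5 replicate 2), CISH from -0.38 (without si-eIF4E+M5 replicate 1) to -0.16 (without si-eIF4E+M5 replicate 2), and the summed inhibitor level from -0.11 to 0.0036. SOCS1 and CISH had the fewest counts (51 to 270). Counting error alone gives SOCS1 a coefficient of variation of 8.92%, below the spread of its replicates.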
